A study of Mus musculus with 4 samples.

Results

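The antioxidant and glutathione enzymes measured here are 55 genes of the 11138 named genes on the arrays. They were chosen by a rule on gene symbols that uses no measured value, though the rule was set with earlier results of these data known. They are the peroxiredoxins, glutathione S-transferases of the alpha, mu, theta, omega, pi, kappa and zeta classes, microsomal glutathione transferases and glutathione peroxidases. The rest are genes whose symbol starts with Txn, the superoxide dismutases Sod1 to Sod3, the quinone oxidoreductases, and Cat, Gsr, Gclc, Gclm and Hmox1. RNA came from endothelium, the cells that line the vessels, isolated from mouse hearts after an intraperitoneal injection of LPS, a glycolipid of the bacterial surface that activates innate immunity, or of saline. Hearts were taken at 4 h or at 24 h; genotype, strain, age, sex, dose and the number of animals per RNA were not named in the labels. At each time the amplified RNA of LPS-injected and of saline-injected mice was set against each other on 2 arrays with 2 colours, array 1 with the LPS RNA in Cy5 and array 2, a dye reversal, with the LPS RNA in Cy3. The labels name no separate animals for the reversed array, so the 2 arrays of a time were counted as 1 replicate, the calls rest on no test, limma with the arrays as separate samples is given as an alternative, and an SD (n = 2 arrays) covers array and dye error only.

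Reactive oxygen is cleared in steps. Superoxide dismutases turn superoxide into hydrogen peroxide, which catalase, the glutathione peroxidases and the peroxiredoxins then reduce. Glutathione is made in a pathway that starts with glutamate-cysteine ligase (Gclc and Gclm) and is kept reduced by glutathione reductase (Gsr), peroxiredoxins are recycled by thioredoxin and thioredoxin reductase, and glutathione S-transferases join glutathione to reactive compounds. Many of these genes are targets of the transcription factor Nrf2, which binds the antioxidant response element. In endothelium exposed to LPS, reactive oxygen comes among other sources from NADPH oxidases.

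All values are log2 ratios of LPS over saline, centred on the median of each array over all genes, with the sign of array 2 turned. The direction of the deposited ratios is not stated: it was taken as Cy5 over Cy3, the labels giving the dyes, and is likely rather than settled. With every array turned, each higher value below would read lower. Over all spots the deposited ratios of the arrays of a time correlated at -0.056 at 4 h and -0.064 at 24 h, so the table itself hardly settles whether array 2 must be turned. The labels also put LPS RNA in the second channel of every array, and if the ratios follow the channels, array 2 needed no turning. With it turned, Ccl2 and Lcn2, which are known to be induced by LPS, read 4.25 and 3.85 and 5.09 and 3.82 on arrays 1 and 2 of 4 h, a choice of genes made with these results known. Not every such gene read higher. Sod2, known to be induced through NF-kB, read -0.29 and 1.18 at 4 h and -1.15 and -0.41 at 24 h. The inducible nitric oxide synthase Nos2 read -1.29 and -0.37 at 4 h and -4.55 and -2.44 at 24 h. A gene is called when its values on both arrays of one time were 2-fold or more (1 log2 unit) away from 0 and had the same sign. The table holds ratios and no levels, so the identity of the cells could not be checked by how strongly markers are expressed, and fewer cells of a type cannot be told apart from less RNA per cell.

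None of the 55 genes was called at 4 h, where 3.25% of all genes were. At 24 h 5 of 55, or 9.09%, were called, beside 7.00% of all genes. The 2 higher genes were the peroxiredoxins Prdx1 and Prdx2, where 3.48% of all genes were called higher. The 3 lower genes were the glutathione S-transferases Gsta2 and Gstm2 and the thioredoxin-domain gene Txndc11, where 3.52% of all genes were called lower. Genes 2-fold on both arrays of a time in opposite directions hold array error together with any dye effect of the gene. Their number is therefore not an error rate of the calls and is given as a description. There was 1 such gene of 55 at 4 h, against 1.42% of all genes, and there were 4 at 24 h, against 3.69% of all genes. The share called at 24 h was thus near that of all genes, and the number called was 1 above the number in opposite directions.

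**Figure D1:**
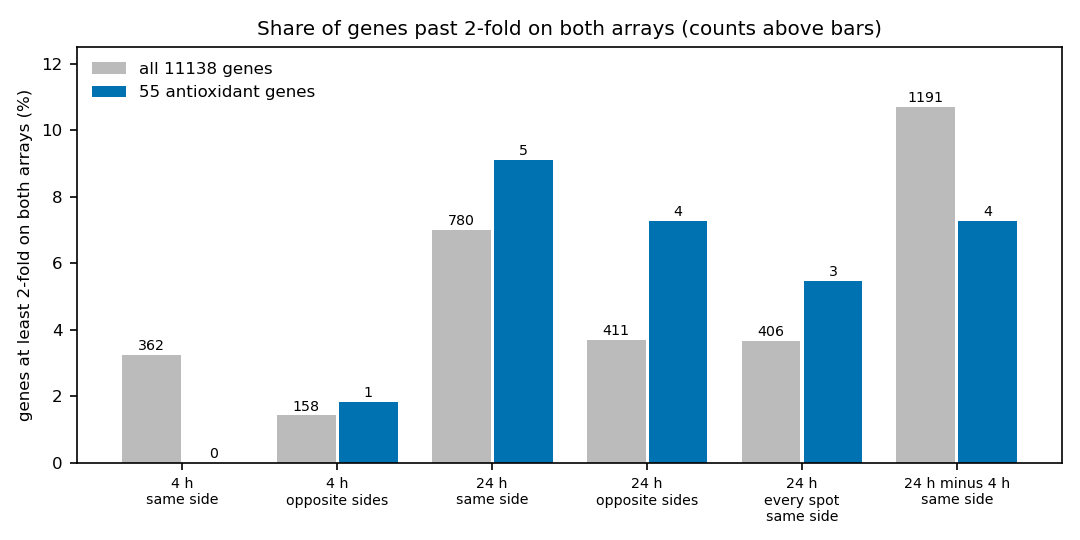
Share of genes (%) that lay at least 2-fold from 0 on both arrays, for all 11138 genes (grey) and for the 55 antioxidant and glutathione genes (blue), with the number of genes above each bar. The antioxidant genes held 0 calls at 4 h and 5 at 24 h, beside 1 and 4 genes past 2-fold on opposite sides.

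Before the values, the promoters of 3 of the 5 called genes are shown from RefSeq (build GRCm38.p6), as the 250 bases before the annotated start, 5′ to 3′ on the strand of the gene. Prdx1 and Prdx2 are shown as the 2 genes called higher at 24 h, and Txndc11 because 1 of its 2 annotated promoters also held the core of the antioxidant response element. Capitals mark that core, TGACNNNGC, searched on both strands in windows that ran from 250 bases before to 50 bases after the start. It was found in windows of 9 of the 46 antioxidant genes with a window, or 19.6%, and in 14.0% of all 27025 genes with one. A gene can have several windows, and counted per window the shares were closer, at 14.5% of 62 and 12.4% of 32851. In Prdx1 the match lay on the opposite strand, lay from position -133 relative to the start of the gene and overlapped a match to the AP-1 motif TGANTCA. The windows of Prdx2, Gstm2 and Gsta2 held no such letters.
Prdx1, chr4:116685349-116685598, plus strand: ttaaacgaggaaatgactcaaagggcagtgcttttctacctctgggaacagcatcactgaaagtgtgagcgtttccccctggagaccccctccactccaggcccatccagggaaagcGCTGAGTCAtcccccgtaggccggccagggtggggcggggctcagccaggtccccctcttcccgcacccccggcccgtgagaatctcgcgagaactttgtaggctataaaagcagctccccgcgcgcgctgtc
Prdx2, chr8:84969372-84969621, plus strand: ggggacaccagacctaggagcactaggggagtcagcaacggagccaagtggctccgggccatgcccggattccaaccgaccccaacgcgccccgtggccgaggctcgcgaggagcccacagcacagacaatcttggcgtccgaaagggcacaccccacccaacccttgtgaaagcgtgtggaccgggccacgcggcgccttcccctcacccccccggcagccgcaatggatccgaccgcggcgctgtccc
Txndc11, chr16:11134533-11134782, minus strand: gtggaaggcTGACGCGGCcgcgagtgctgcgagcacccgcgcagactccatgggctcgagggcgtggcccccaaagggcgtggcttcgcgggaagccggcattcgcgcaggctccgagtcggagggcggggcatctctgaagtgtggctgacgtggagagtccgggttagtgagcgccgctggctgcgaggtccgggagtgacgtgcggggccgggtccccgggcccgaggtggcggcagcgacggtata
A match of letters is a description of the sequence. The other members with a match were Gclm, Gsta3, Gstm5, Gstm7, Mgst1, Sod1 and Txnrd1. None of these 7 was called at either time, beside 3.25% of all genes called at 4 h and 7.00% at 24 h. With so few genes this is a description only. Gclc, Gpx2-ps1, Gsr, Gsta4, Gstt2, Hmox1, Sod3, Txnl1 and Txnl4a had no window and were not searched.

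Peroxiredoxins reduce hydrogen peroxide through a reactive cysteine. Prdx1, a cytosolic member, read 0.55 and -0.15 on arrays 1 and 2 at 4 h, and 2.06 and 1.40 at 24 h. Both arrays of 24 h lay above both of 4 h, and the mean at 24 h was 1.73 ± 0.47, or 3.32-fold. Its 4 spots of 24 h ran from 0.78 to 2.28, so the call was lost where every spot had to be 2-fold. It was also lost where only spots within 0.5 log2 units of their duplicate were used, as array 2 of 24 h then had no value. Prdx2, the cytosolic peroxiredoxin that is abundant in red blood cells, read 0.47 and -0.76 at 4 h and 1.32 and 1.07 at 24 h. The 4 h arrays lay on either side of 0 and the 24 h arrays together above them, at a mean of 1.19 ± 0.18, or 2.29-fold. All 4 spots of 24 h lay between 1.01 and 1.51, and the call was lost under scale and quantile normalization. Since Prdx2 is a red cell protein, markers of red cells are given beside it. Of 10 measured, Klf1 was higher at 24 h and Car1 lower, the median was 0.59, and the haemoglobin genes Hba-a1 and Hbb-b2 stood at 0.72 ± 1.02 and -0.05 ± 0.66, and their part in the value of Prdx2 was not tested. The mitochondrial Prdx3 read 0.64 and 0.18 at 4 h and 0.74 and -0.71 at 24 h. Prdx4, the member of the endoplasmic reticulum, had a mean of -0.38 ± 0.05 at 4 h and -0.20 ± 0.45 at 24 h, but its 2 oligonucleotides disagreed. At 24 h the first read -1.22 and -1.26 on arrays 1 and 2, and the other 1.44 and 0.21. At 24 h the 2 cytosolic members were called and Prdx3 and Prdx4 were not. The mean of Prdx4 joins oligonucleotides that disagree, so it gives no direction for that gene. A difference between members was not tested.

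The thioredoxin system, which returns electrons to peroxiredoxins, held no call at 2-fold, and Txn1 came nearest to one. Txn1, the cytosolic thioredoxin, read 0.73 and 1.88 at 4 h and 0.91 and 1.32 at 24 h. It lay above 0 on all 4 arrays, as 15.6% of all genes lay on 1 side of 0 on all of them, and 7 of the 55 genes here, or 12.7%. All 8 spots were positive, from 0.60 to 2.15, and the means were 1.31 ± 0.81 at 4 h and 1.12 ± 0.29 at 24 h. Array 1 fell short of 2-fold at both times, so Txn1 was not called, but it was at 1.5-fold at both times. Txndc17, a thioredoxin-related protein of the cytosol, read 0.51 and 0.40 at 4 h and 0.64 and 1.19 at 24 h. Txnl1, a thioredoxin-like protein that binds the proteasome, was at 0.64 ± 0.38 and 0.56 ± 0.11. These 3 cytosolic genes were the members above 0 on all 4 arrays, together with Gstm5 at 0.51 ± 0.59 and 0.59 ± 0.24. The mitochondrial thioredoxin reductase Txnrd2 lay below 0 on all 4, at -0.45 ± 0.12 and -0.52 ± 0.03, and so did Gstm6 and, with values from -2.37 to -0.01, Gstt1. The 2 oligonucleotides of Txnrd2 differed on array 1 of 24 h, at -1.32 and 0.24. The cytosolic reductase Txnrd1 was at -0.01 ± 0.06 at 4 h and 0.32 ± 0.29 at 24 h. Its value on array 2 of 24 h averaged spots at 1.71 and -1.49. The mitochondrial thioredoxin Txn2 was at -0.31 ± 0.43 and -0.70 ± 1.51. Txnip, which binds and inhibits thioredoxin, was at 0.37 ± 0.51 and 0.12 ± 0.98, and its 2 oligonucleotides stood at -0.10 and 1.56 on array 2 of 4 h.

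Txndc11, a thioredoxin-domain protein of the endoplasmic reticulum, was the lowest of the 55 genes at 24 h. It read 0.97 and 0.11 at 4 h and -2.72 and -1.89 at 24 h, so that both arrays were above 0 at the first time and both below -1 at the second. The mean at 24 h was -2.30 ± 0.59, or 4.93-fold lower. Its spots of 4 h were scattered from -0.99 to 1.93 and those of 24 h all lay between -3.24 and -1.39. It was the 1 member called at a 3-fold threshold. Where duplicate spots had to agree within 0.5 log2 units it had no value at 24 h and so was not called. The other thioredoxin-domain and thioredoxin-like genes had means from -0.48 (Txndc8) to 0.64 (Txnl1) at 4 h and from -0.03 (Txndc12) to 0.92 (Txndc17) at 24 h. Txnl4a, a splicing protein with a thioredoxin fold, was among these at 0.51 ± 0.94 at 24 h. Its 2 oligonucleotides disagreed on array 2, at 2.03 and -1.55 at 4 h and at 0.40 and -0.72 at 24 h.

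**Figure D2:**
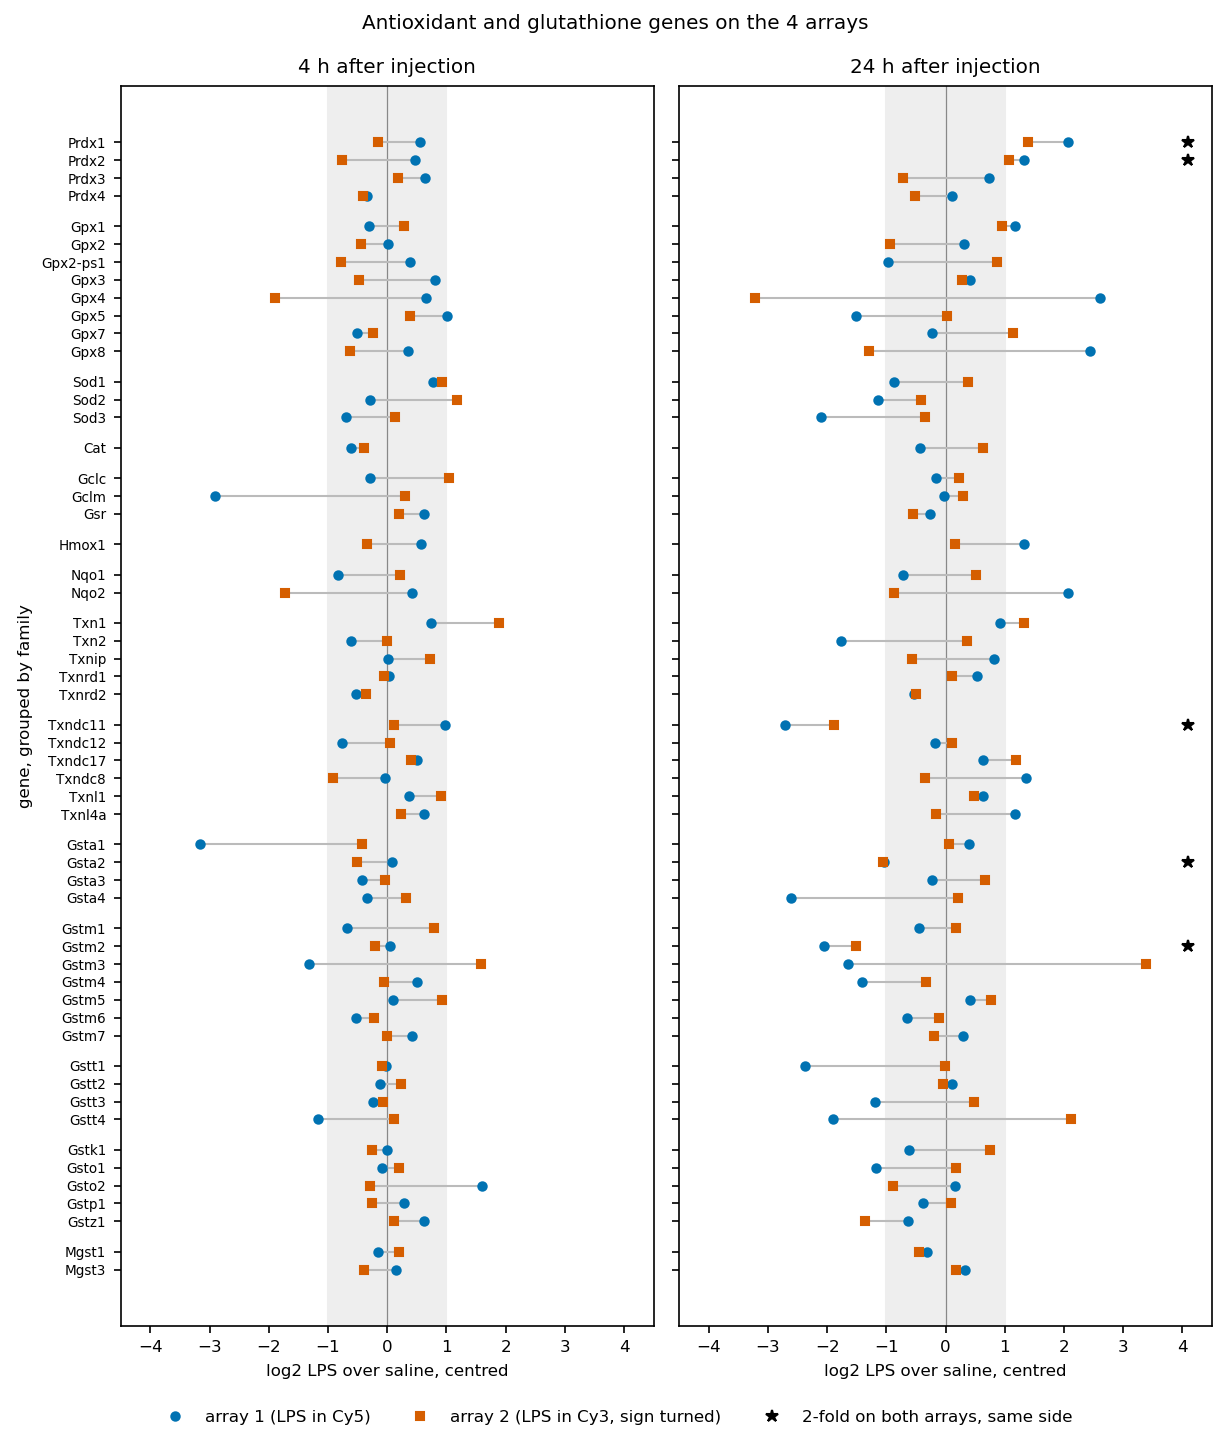
log2 ratio of LPS over saline (x axis, centred on the median of each array) for the 55 antioxidant and glutathione genes (y axis, grouped by family) at 4 h (left) and 24 h (right). Circles are array 1 and squares array 2, joined by a line, the grey band marks less than 2-fold, and stars mark the 5 genes called at 24 h, Prdx1, Prdx2, Txndc11, Gsta2 and Gstm2.

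Glutathione peroxidases use glutathione to reduce peroxides. Gpx1, the cytosolic and mitochondrial enzyme, read -0.30 and 0.29 at 4 h and 1.17 and 0.95 at 24 h. It lay just outside the calls: without centring of the arrays Gpx1 was called at 24 h and Gsta2 was not. At 24 h its mean was 1.06 ± 0.15, or 2.08-fold, and its lowest spot stood at 0.83. Gpx3, the secreted plasma enzyme, was at 0.17 ± 0.91 and 0.35 ± 0.10. Gpx4, which reduces lipid peroxides and guards against ferroptosis, read 0.66 and -1.90 at 4 h and 2.60 and -3.23 at 24 h. Its arrays were on opposite sides at both times, and all 4 spots of array 1 were above 0 and all 4 of array 2 below, so the mean of -0.31 ± 4.12 at 24 h gives no direction. Gpx8, a peroxidase of the endoplasmic reticulum, was also split at 24 h, at 2.44 and -1.29. Gpx7, of the same compartment, was at -0.38 ± 0.19 and 0.45 ± 0.96. The epithelial Gpx2 was at -0.22 ± 0.31 and -0.31 ± 0.89, Gpx2-ps1, a pseudogene copy by its name, at -0.20 ± 0.82 and -0.05 ± 1.30, and the epididymal Gpx5 at 0.70 ± 0.45 and -0.75 ± 1.08.

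Of the superoxide dismutases, the cytosolic copper and zinc enzyme Sod1 read 0.77 and 0.93 at 4 h and -0.87 and 0.37 at 24 h. Its 4 h arrays agreed, at a mean of 0.85 ± 0.11, and stood under the 2-fold threshold. The mitochondrial manganese enzyme Sod2, known to be induced through NF-kB, read -0.29 and 1.18 at 4 h and -1.15 and -0.41 at 24 h. At 4 h only array 2 was high, with spots at 0.73 and 1.63. The extracellular Sod3 was at -0.28 ± 0.59 and -1.22 ± 1.24, with -2.10 and -0.35 on the arrays of 24 h. None of the 3 enzymes was called, and all had a mean below 0 at 24 h. Catalase (Cat) read -0.61 and -0.39 at 4 h and -0.43 and 0.63 at 24 h.

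Of heme oxygenase, the quinone oxidoreductases and the enzymes of glutathione synthesis and reduction, none was called at either time. Hmox1, which degrades heme, read 0.56 and -0.35 at 4 h and 1.32 and 0.16 at 24 h, with a mean of 0.74 ± 0.82 at 24 h. Its spots of array 1 at 24 h lay at 1.84 and 0.80 and those of array 2 at 0.36 and -0.03. Nqo1, which reduces quinones, was at -0.31 ± 0.74 and -0.11 ± 0.87. Its relative Nqo2 read 0.42 and -1.72 at 4 h and 2.07 and -0.87 at 24 h, split between the arrays at both times. Gclc, the catalytic subunit of glutamate-cysteine ligase, was at 0.38 ± 0.95 and 0.03 ± 0.27. The modifier subunit Gclm read -2.91 and 0.30 at 4 h, where the value of array 1 came from 2 spots at -6.97 and 1.14, and 0.13 ± 0.23 at 24 h. Gsr was at 0.41 ± 0.29 at 4 h and -0.41 ± 0.21 at 24 h, above 0 on both arrays of the first time and below 0 on both of the second.

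Glutathione S-transferases made up 22 of the genes, 20 cytosolic or mitochondrial and 2 microsomal. In the mu class of 7 genes, Gstm2 read 0.04 and -0.21 at 4 h and -2.06 and -1.51 at 24 h. The 24 h arrays lay together far below those of 4 h, at a mean of -1.78 ± 0.39, or 3.45-fold lower. Its 4 spots of 24 h ran from -2.17 to -1.50, and of 9 other scalings, spot rules and thresholds only the 3-fold threshold lost the call. Gstm4 was at -0.87 ± 0.77 at 24 h, with -1.41 and -0.32 on the arrays. Gstm1 at -0.13 ± 0.44, Gstm6 at -0.38 ± 0.39, Gstm7 at 0.05 ± 0.36 and Gstm5 stayed within 2-fold on both arrays at 24 h. Gstm3 was the 1 gene 2-fold in opposite directions at both times, at -1.33 and 1.58 at 4 h and -1.64 and 3.39 at 24 h. The mu-class genes are similar in sequence and lie next to each other, and as the oligonucleotide sequences were not used here, signal from one gene on the spot of another was not tested.

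In the alpha class, Gsta2 was called lower at 24 h at the edge of the rule. It read 0.07 and -0.52 at 4 h and -1.04 and -1.05 at 24 h, with a spot at -0.80, and the call was lost without centring, under scale and quantile normalization and where every spot had to be 2-fold. Gsta1, a close paralogue, was at -1.79 ± 1.93 at 4 h, where 1 spot of array 1 stood at -6.40 and its duplicate at 0.08, and at 0.23 ± 0.23 at 24 h. Gsta4, which acts on the lipid peroxidation product hydroxynonenal, read -2.60 and 0.22 at 24 h, and Gsta3 was at 0.22 ± 0.63. The theta class held Gstt1 at -1.19 ± 1.67 at 24 h, from 1 spot of array 1 at -4.32 beside its duplicate at -0.42, and Gstt4, split at -1.89 and 2.12. Gstt2 was at 0.04 ± 0.11 and Gstt3 at -0.35 ± 1.18. Of the other classes, Gstz1, which acts in tyrosine breakdown, read 0.61 and 0.12 at 4 h and -0.64 and -1.37 at 24 h. Gsto2 at 4 h, at 0.66 ± 1.34, rested on 1 of its 2 oligonucleotides, which stood at 3.04 on array 1 beside 0.16 for the other. Gstp1, Gstk1 and Gsto1 had means from -0.50 to 0.07 at 24 h, and the microsomal Mgst1 and Mgst3 were at -0.38 ± 0.09 and 0.26 ± 0.10.

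**Figure D3:**
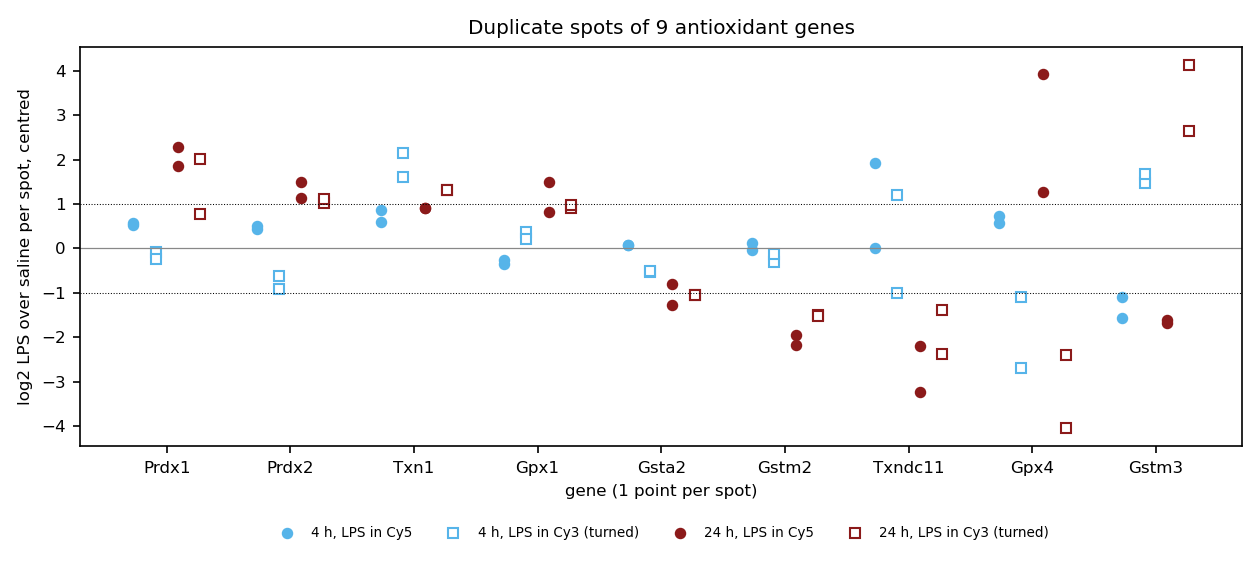
log2 ratio of LPS over saline (y axis, centred) of each spot of 9 antioxidant genes, with 4 h in blue and 24 h in dark red, filled circles for array 1 and open squares for array 2, and dotted lines at 2-fold. All spots of Prdx2 (1.01 to 1.51), Gstm2 (-2.17 to -1.50) and Txndc11 (-3.24 to -1.39) at 24 h passed 2-fold, while Gpx4 and Gstm3 split by array at both times.

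With the stricter demand that all spots pass 2-fold on the same side at 24 h, Gstm2, Prdx2 and Txndc11 were called, 3 of 55, beside 3.65% of all genes. The opposite pattern was also present. At both times 3 genes, Gpx4, Gstm3 and Nqo2, had arrays at least 2 log2 units apart in the same dye order, a half-difference of 1 or more, beside 1.43% of all genes. For Gpx4 the half-differences, array 1 minus array 2, were 1.28 and 2.92, for Nqo2 1.07 and 1.47, and for Gstm3 -1.46 and -2.52. These 3 genes read with the dye and not with LPS if array 2 was rightly turned. If it was not, they would be the ones on the same side, and Prdx1, Prdx2, Gsta2, Gstm2 and Txndc11 those on opposite sides. Over the 55 genes the turned arrays correlated at -0.10 at 4 h and -0.13 at 24 h, beside 0.12 and 0.12 over all genes, as a description over genes that share the same arrays.

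**Figure D4:**
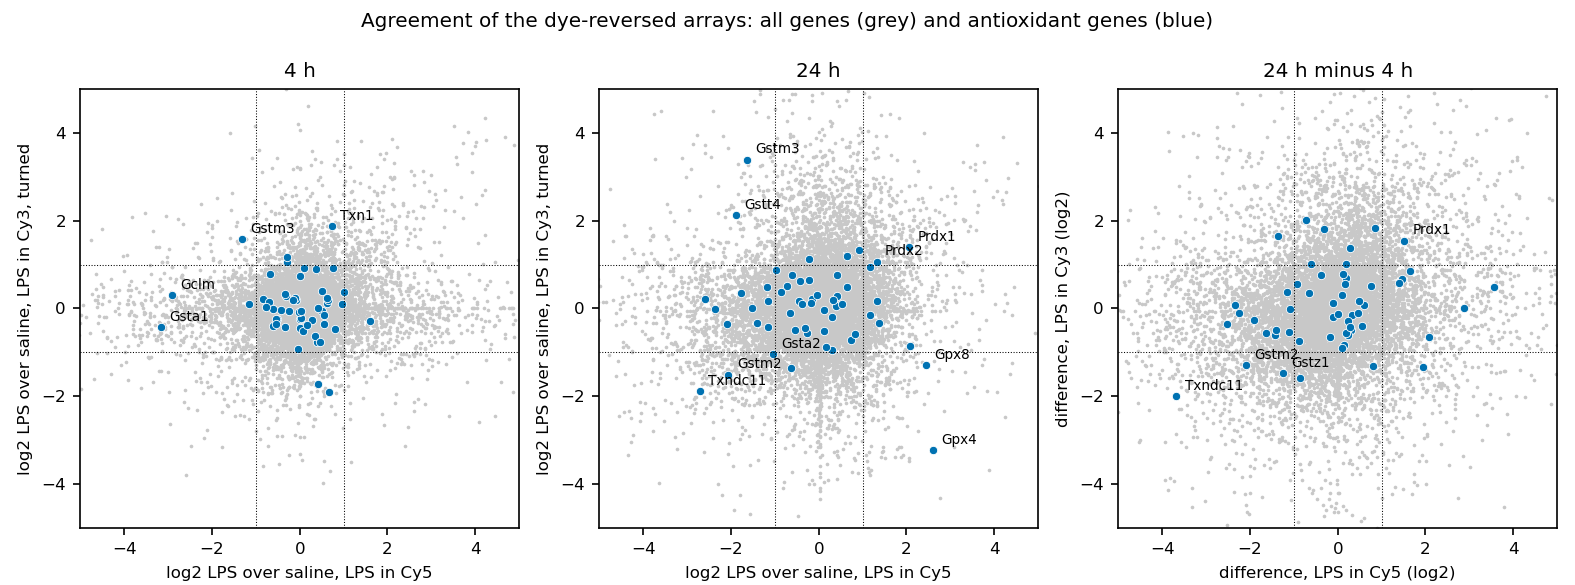
log2 ratio of LPS over saline on array 2 (y axis, sign turned) against array 1 (x axis) at 4 h and 24 h, and the difference of 24 h minus 4 h within each dye order (right), for all genes (grey) and the 55 antioxidant genes (blue), with dotted lines at 2-fold; 94, 49 and 174 genes lie beyond the axes. Prdx1 and Prdx2 at 24 h lie past 2-fold at the upper right and Gsta2, Gstm2 and Txndc11 at the lower left, while Gpx4, Gpx8, Gstm3 and Gstt4 lie in the other corners.

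The median of the 55 genes was close to that of all genes at both times. It was -0.010 at 4 h, beside -0.016 over all genes, and 0.011 at 24 h, beside -0.021. At 4 h 26 genes had a mean above 0 and 29 below, and at 24 h 28 and 27. The arrays of a time differed by a median of 0.60 log2 units for these genes at 4 h and of 0.83 at 24 h, beside 0.57 and 0.85 over all genes. With the arrays entered in limma as if they were separate samples, 0 of the 55 genes reached an adjusted p under 0.05 at either time or between the times. At an unadjusted p under 0.05 limma gave 1 gene at 4 h, Txn1, and 6 at 24 h, the 5 called ones and Gpx1. A dye term gave 0 too. Unadjusted, it gave Txn1 at 4 h and 6 genes at 24 h, Gstm2, Prdx1, Prdx2, Sod3, Txn1 and Txndc11. Over all 11138 genes both fits gave 0 adjusted. Unadjusted, the fit without a dye term gave 475 at 4 h and 1126 at 24 h, and the fit with it 721 and 1240. The lowest adjusted p among the 55 genes at 24 h in limma without a dye term was 0.391, shared by Gstm2 and Txndc11.

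The next comparison set 24 h against 4 h within each dye order. A dye effect of a gene drops out of it only where that effect is the same at both times. Whether it was the same was not tested. The half-differences given above for Gpx4, Gstm3 and Nqo2 were larger in size at 24 h than at 4 h. The labels do not say whether both times share the same saline RNA. Both differences were at least 2-fold on the same side for 4 of 55 genes, or 7.27%, beside 10.7% of all genes. Prdx1 was higher at 24 h, by 1.51 with LPS in Cy5 and 1.55 with LPS in Cy3. Gstm2 was lower, with differences of -2.10 and -1.30, as were Txndc11 with -3.68 and -2.00 and Gstz1 with -1.25 and -1.48. Under scale normalization Prdx1 and Gstm2 were not called between the times, while Gstz1 and Txndc11 were. The differences of Prdx2 were 0.85 and 1.83 and those of Gpx1 1.47 and 0.66, so that 1 of the 2 fell short in each. Txn1 stood alike at both times, with differences of 0.18 and -0.56. Where every spot had to pass, Gstm2 was the 1 gene called between the times.

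Genes around these enzymes were taken from 7 lists of 97 measured genes, on the regulation of Nrf2, the supply of glutathione and NADPH, other redox repair, heme and iron, metallothioneins and sources of reactive oxygen and nitrogen. Of these 2 were higher and 1 lower at 4 h, or 3.09%, and 5 were higher and 4 lower at 24 h, or 9.28%, again near the shares of all genes. Nrf2 itself (Nfe2l2) read -0.17 and 1.63 at 4 h and 0.10 and 1.13 at 24 h, and its inhibitor Keap1 was at 0.81 ± 0.03 at 24 h. Neither was called, and of 10 regulators Rbx1, a subunit of the ligase that Keap1 recruits, was the 1 called gene, at 1.33 ± 0.08 at 24 h. Among 12 glutathione and cystine supply genes, the cystine carrier Slc7a11 was lower at 24 h at -1.46 ± 0.50. The neutral amino acid carrier Slc1a4 was lower at 4 h at -2.33 ± 0.02 and higher at 24 h at 1.40 ± 0.51. Of 28 other redox genes, the glutaredoxins Glrx3 at 4 h (1.32 ± 0.30) and Glrx2 at 24 h (1.42 and 1.58) were higher, and the Nrf2 target Osgin1 was lower at 24 h at -1.67 ± 0.30. None of 10 NADPH supply or 14 heme and iron genes was called at either time. Mt2, the 1 called of 3 metallothioneins, stood at 4.20 ± 2.16 and 3.66 ± 0.09. Of 20 sources of reactive oxygen and nitrogen, Rac1, a subunit of active NADPH oxidase, was higher at 24 h at 1.46 ± 0.28 and the nitric oxide synthases Nos1 and Nos2 were lower, at -1.80 ± 0.05 and -3.50 ± 1.49. The oxidase subunits Cyba and Cybb were at -0.19 ± 0.79 and 1.17 ± 0.86 at 24 h and were not called.

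Markers of endothelium and of other cells were read on the same arrays. Of 18 endothelial genes 1 was higher and 2 lower at 4 h and 3 higher at 24 h. Kdr and Eng, receptors of vascular growth factors, were lower at 4 h, at -1.89 ± 0.75 and -1.87 ± 0.84, and higher at 24 h, at 2.21 ± 0.48 and 3.91 ± 0.85. Pecam1 and Cdh5, defining genes of endothelium, stood at -0.01 ± 0.87 and -0.42 ± 0.10 at 24 h. Of 16 neutrophil genes 4 were higher at 24 h (S100a8, S100a9, Lcn2 and Fpr2) and 1 lower (Ngp). The 1 higher at 4 h was Lcn2, which was also read above for the direction of the ratios. At both times 0 of 18 macrophage and monocyte genes and 0 of 8 platelet genes were called. At 24 h 1 of 23 cardiomyocyte genes was lower, 2 of 17 lymphocyte genes were lower, 3 of 15 fibroblast genes were higher. Of 15 smooth muscle and pericyte genes, Actg2 was higher at 4 h and lower at 24 h. Over the 9 marker lists, leaving out genes also in a redox list, 5 of 137 genes, or 3.65%, were called at 4 h. At 24 h 17 of them, or 12.4%, were called. The shares of all genes were 3.25% and 7.00%. The part of other cells in the values of the antioxidant genes was not tested.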

How the data were processed

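Endothelial RNA of LPS-injected and saline-injected mice was compared on 4 arrays with 2 colours, 2 per time. The deposited table holds log2 ratios of 32448 spots per array. Background correction, dye normalization, spot filters and the direction of the ratio were not stated in the labels or the table, and the depth of a spot is unknown because the table has no intensities. Ratios of exactly 1 (within 1e-06 on the log2 scale) made up 10.2% to 13.4% of spots. Of the spots, 24344 had 1 gene symbol in the platform annotation, 98 had several and 8006 were not listed. All 55 genes matched RefSeq (GRCm38.p6) by gene identifier with the same symbol, and they held 120 spots of 60 oligonucleotides, 5 genes having 2.

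The sign of array 2 was turned, adjacent duplicate spots and then the oligonucleotides of a gene were averaged, and the median over the 11138 genes was subtracted per array. A ± value is the SD of the 2 arrays. Genes named are all called members, all members of the small families and the extremes of the others. Members and lists were chosen with earlier results of these data known. Alternatives were other scalings, spot filters, thresholds, the unturned sign, single arrays and limma with Benjamini-Hochberg adjustment over all genes. The call rule and the limma fit were checked on simulated data with large changes and less noise than these arrays. That is a check of the code and does not show how either performs at the noise of these arrays. Software was Python 3.11.15, pandas 2.3.3, R 4.3.3 and limma 3.58.1. The number of arrays limits the precision.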

Additional observations from a re-analysis of the deposited data

Results flagged for a closer look

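In 4 genes every array of 4 h lay on one side of 0 and every array of 24 h on the other, and the difference between the times was not tested. Gsr changed by -0.81 (24 h minus 4 h, log2), Gstz1 by -1.37 and Txndc11 by -2.84, from above 0 to below. Gsta1 went the other way, by 2.02, and rested on 1 spot of array 1 at 4 h, at -6.40 beside its duplicate at 0.08. With 2 arrays per time no group was large enough to look for a single outlying array.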

How the results depend on the processing

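No member was called at 4 h under any other scaling, spot filter or the 3-fold threshold. There were 2 at 1.5-fold (Sod1, Txn1), beside 8.45% of all genes, and 1 with the sign unturned (Gstm3), beside 1.42%. The 5 calls of 24 h became 3 under scale normalization (3.81% of all genes), under quantile normalization (4.71%), with agreeing spots (3.36%) and with every spot 2-fold (3.65%). With agreeing spots, a gene whose duplicates disagreed had no value, counted as not called and stayed in the share. Of the values of the named genes, 74 were left in that setting, beside 92 in the others. Prdx1 and Txndc11 were lost at 24 h for want of a value. They became 9 at 1.5-fold (16.2%), 1 at 3-fold (2.11%) and 0 in limma with or without a dye term. Unturned, 4 genes were called at 24 h (Gpx4, Gpx8, Gstm3, Gstt4), none of them among the 5. The 4 calls between the times became 7 under quantile normalization (10.3%), 1 with agreeing spots (2.52%), 1 with every spot 2-fold (4.25%), 10 at 1.5-fold (22.1%), 1 at 3-fold (3.76%) and 2 with the sign unturned (5.36%). They became 11 where both arrays of one time had to lie above both of the other (19.8%) and 0 in limma with or without a dye term. Under scale normalization 5 genes were called between the times, Gstz1, Nqo2, Sod1, Txndc11 and Txndc8, without Prdx1 and Gstm2. Over all genes, the calls at 24 h went from 780 to 424 under scale normalization, and those at 4 h from 362 to 557, or 561 under quantile normalization; agreeing spots left 374 and 161. Single arrays gave 6 and 6 members at 4 h, 13 and 23 at 24 h and 14 and 22 between the times, where 12.7% to 38.3% of all genes passed. The median at 4 h was 0.005 without ratios of exactly 1, -0.050 with agreeing spots and 0.034 with the sign unturned, and -0.007 and 0.009 on single arrays. Of the values of 46 named genes, 27 of 534 changed sign under 6 other scalings and spot rules, 42 of 92 with the sign unturned and 49 of 184 on single arrays. Of the values called, 1 changed sign, Gsta2 at 24 h, which was 0.00 unturned, and unturned the other 4 of the 5 genes had means from -0.42 to 0.33. The replicate number is the dye order, so the dye term in limma is also the block on replicates. The cause of these changes was not tested.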
